A study of Homo sapiens with 4 samples.

Results

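The genes described here are 41 members of the unfolded protein response and of the integrated stress response, the linked programmes with which a cell answers misfolded protein in the endoplasmic reticulum (ER) and shortage of amino acids. They were chosen by symbol from knowledge of the pathways, with earlier results of these data known, so counts over them are descriptions. For each the brightest probe set by mean log2 signal was used, among those annotated to that symbol alone. All 41 had such a probe set and all 41 passed the filter on dim genes, out of 19775 genes with a probe set and 12190 genes tested. Of the 41, TRIB3, a pseudokinase induced through the transcription factor ATF4, rose in cells transduced with ING3, and CREB3, a membrane-bound transcription factor of the ER, fell. The other 39 did not pass the test.

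The arrays were made from MIA PaCa-2 cells, a line established from a human pancreatic carcinoma, all grown in medium with serum and antibiotics. In the control group (arrays a and b, always given in that order) the cells carried a lentivirus expressing GFP. In the ING3 group (arrays a and b) they carried a lentivirus with FLAG-tagged full-length ING3, which belongs to the NuA4/TIP60 acetyltransferase, under the CMV promoter that the vector's name gives. Stably transduced cells were selected, as clones whose number the labels do not give, before RNA was isolated near confluence. Each pair of arrays is a technical duplicate in the submitters' design, so every p-value here sets a difference against the spread between duplicates of 1 cell population a group, and says nothing of the spread between cultures. In bulk RNA a lower level in every cell and fewer cells that express a gene cannot be told apart.

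Misfolded protein in the ER is sensed by the kinase and endonuclease IRE1 (gene ERN1), the kinase PERK (EIF2AK3) and the membrane-bound factor ATF6. IRE1 splices XBP1 mRNA, ATF6 is cut free of the membrane, and the resulting factors raise ER chaperones and the machinery that removes misfolded proteins. PERK phosphorylates the initiation factor eIF2, as do the other eIF2 kinases under amino acid shortage, viral infection or heme shortage, and this favours translation of ATF4. ATF4 and its partners raise genes for amino acid synthesis and uptake, tRNA charging, redox balance and, under lasting stress, cell death. Pancreatic acinar cells are known for a heavy secretory load and depend on this response. Much of the regulation lies in splicing, cleavage, phosphorylation and translation, which the arrays do not measure.

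Values are linear MAS5 signals, scaled by the authors so that the arrays share a trimmed mean, and a log2 difference is the mean of log2(signal + 1) in ING3 cells minus that in control cells. "Rose" and "fell" are kept for an adjusted p under 0.05 (limma, Benjamini-Hochberg over all 12190 tested genes), and with 2 arrays against 2 an exact permutation test could not go below 0.33. Across the tested genes the SD of the log2 difference was 0.29 to 0.31 for the duplicate pairs and 0.32 to 0.35 for pairs that cross the groups. Across the members alone it was 0.12 for the duplicate pairs and 0.18 to 0.25 for pairs that cross the groups. The signal of ING3 was 338 and 373 in control cells against 521 and 541 in ING3 cells, a log2 difference of 0.58 that did not pass (SE 0.13, adjusted p = 0.071). RNA integrity, read as the 3'/5' quotient of ACTB, came to 2.58 and 1.80 in control cells against 2.05 and 2.03 in ING3 cells. The same quotient of GAPDH lay between 0.903 and 0.934. Control array a stood highest in both, and its part in the results was not tested beyond the fits that leave it out. Of 6 epithelial markers, KRT8, KRT18, KRT19 and MUC1 passed the filter on dim genes while EPCAM and CDH1 did not, and KRT8, KRT19 and MUC1 rose in the ING3 cells by 0.32, 0.52 and 0.42 (log2). Of 4 mesenchymal markers none was called: ZEB1 had a log2 difference of 0.21 with both ING3 arrays above both controls, VIM had -0.065, and CDH2 and FN1 lay under the filter, also with both ING3 arrays above. Of 10 markers of leukocytes, endothelium and fibroblasts, PTPRC, VWF and LUM lay under the filter with group means of at most 38.6, and CD68 had no probe set of its own. PTPRC and the fibroblast marker LUM had both ING3 arrays above both controls, and VWF overlapped. The 6 others were not called, among them the fibroblast collagens COL1A1 and COL1A2, with log2 differences of -0.45 and -0.25 and both ING3 arrays below both controls. COL1A2 was bright, with a signal of 4648 and 4548 in control cells against 3749 and 3996 in ING3 cells. The part of these markers in the results was not tested.

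The DNA elements known to be bound by the factors of these pathways are shown first, with the member promoters that hold their letters. The ER stress response element, which ATF6 binds together with the CCAAT-binding factor NF-Y, consists of CCAAT and CCACG with 9 bases between them. Promoters of RefSeq (GRCh38.p14, 250 bases before to 50 after the annotated start) were found for 39 of the 41 members, all but NUPR1 and PDIA3, and were searched on both strands. The element was in 5 of these 39 (HSPA5, HSP90B1, CALR, CRELD2 and XBP1) and in 27 of 35116 promoters of all genes, which is 0.077%. Its matches are given 5′ to 3′ on the strand that holds them, with CCAAT and CCACG in capitals.
HSPA5, 66 to 48 bases before the start: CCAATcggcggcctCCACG
XBP1, 52 to 34 bases before the start: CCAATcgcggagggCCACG
HSP90B1, 194 to 176 bases before the start: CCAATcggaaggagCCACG
HSP90B1, 89 to 71 bases before the start, on the opposite strand: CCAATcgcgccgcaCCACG
CRELD2, 80 to 62 bases before the start, on the opposite strand: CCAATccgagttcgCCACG
CALR, 225 to 207 bases before the start, on the opposite strand: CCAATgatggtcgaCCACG

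The matching element of ATF4 is TGATGNAA, where N is any base, at which ATF4 pairs with C/EBP proteins. It was in 6 of the 39 member promoters, against 3.62% of all promoters. These were AARS1, CHAC1 and HERPUD1 (each TGATGcAA), ASNS (TGATGaAA), ATF3 (TGATGgAA) and SLC3A2 (TGATGtAA), with the bases that define the element in capitals. A match describes the letters of the window and is not a measured binding site.

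The 250 bases before the start of the members that passed the test, and of HSPA5 as the reference chaperone, are printed in the sense of the gene, with CCACG and its reverse complement CGTGG in capitals wherever they occur, and CCAAT where it forms the ER element. CCACG alone was in 38.1% of all promoters and overlaps the ER element. The TRIB3 window (chr20:381045-381294, plus strand) holds 1 CCACG and no full element, and the CREB3 window (chr9:35732416-35732665, plus strand) holds 1 in each orientation and no full element. The HSPA5 window lies at chr9:125241344-125241593 on the minus strand.
TRIB3: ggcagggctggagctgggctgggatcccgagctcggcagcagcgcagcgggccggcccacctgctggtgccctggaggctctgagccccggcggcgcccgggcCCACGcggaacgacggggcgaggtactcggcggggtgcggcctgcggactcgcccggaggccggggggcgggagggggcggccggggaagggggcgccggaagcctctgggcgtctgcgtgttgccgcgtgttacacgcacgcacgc
CREB3: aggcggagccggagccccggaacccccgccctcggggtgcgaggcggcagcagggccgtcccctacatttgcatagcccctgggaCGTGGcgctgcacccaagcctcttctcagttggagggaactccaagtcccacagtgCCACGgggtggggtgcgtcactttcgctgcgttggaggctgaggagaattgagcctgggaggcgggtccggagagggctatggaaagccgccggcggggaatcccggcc
HSPA5: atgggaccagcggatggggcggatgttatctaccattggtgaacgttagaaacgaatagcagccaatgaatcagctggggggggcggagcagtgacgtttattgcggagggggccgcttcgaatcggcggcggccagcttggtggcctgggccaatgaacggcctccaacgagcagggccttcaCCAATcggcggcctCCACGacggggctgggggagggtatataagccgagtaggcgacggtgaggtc

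Over the 41 members, 1 rose and 1 fell, against 1.03% of all tested genes that rose and 0.476% that fell. Both ING3 arrays lay above both control arrays for 23 members (56.1%), against 24.3% of all tested genes, and below them for 5 (12.2%), against 24.9%. An unadjusted p under 0.05 was reached by 14 members with a higher and 2 with a lower mean in the ING3 cells, where the share of all tested genes was 9.54% and 8.19%. The median log2 difference of the members was 0.088, and that of all tested genes was -0.0074. Differences were small: the median size was 0.13 for the members and 0.13 for all tested genes. Between duplicate arrays the median size was 0.056 (control) and 0.094 (ING3) for the members. For all tested genes it was 0.11 and 0.12. Between arrays of different groups the median size was 0.14 to 0.16 for the members and 0.15 to 0.17 for all tested genes. The shares set beside all tested genes were not adjusted for the smaller spread of the members between duplicates.

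**Figure D1:**
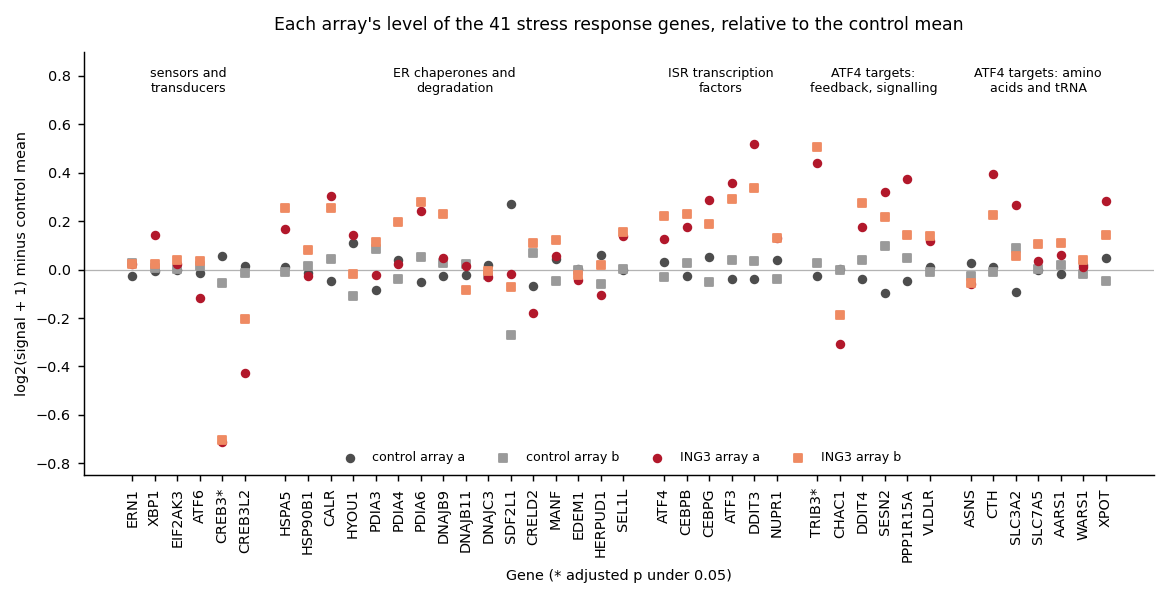
For each of the 41 genes (horizontal axis, grouped by role) the points give log2(signal + 1) on each of the 4 arrays minus the mean of the control arrays. The red (a) and orange (b) points of the ING3 arrays lie above both grey control points for all 6 transcription factors of the integrated stress response, far below them for CREB3, and among them for 9 of the 16 ER chaperones and degradation genes.

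CREB3 fell, and the sensors ERN1, EIF2AK3 and ATF6 did not pass the test, with log2 differences within 0.05 of 0. Of the 6 sensors and membrane transducers, 0 rose and 1 fell. CREB3, which is released from the ER and Golgi by proteolysis, had a signal of 1229.5 and 1140.3 in control cells against 723 and 726 in ING3 cells. Both ING3 values lay well below both control values, a log2 difference of -0.71 with SE 0.094 (limma, adjusted p = 0.012), and CREB3 was 1.63-fold lower. In limma with a variance model that has no intensity trend, CREB3 did not pass (adjusted p = 0.24). That fit called 0 of all 12190 tested genes. CREB3 also did not pass with control array a or b left out. Those fits hold a single control array and called hardly any gene of the series. Over the 14 alternatives to the main fit the log2 difference of CREB3 lay between -0.76 and -0.65. CREB3 had 1 probe set, of the _s_at kind, which can match several transcripts.

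CREB3L2, a relative of CREB3 that raises secretory capacity, had a signal of 894 and 878 in control cells against 659 and 768 in ING3 cells. The groups did not overlap here either, with ING3 array b closer to the controls, and the log2 difference of -0.32 did not pass (SE 0.11, adjusted p = 0.18). XBP1, the factor whose mRNA IRE1 splices, had a signal of 4061 and 4099 in control cells against 4505 and 4150.3 in ING3 cells. Control array b lay close to ING3 array b, and the log2 difference was 0.084 (SE 0.065); the probe set does not tell the spliced from the unspliced mRNA in these data. Among the sensors, ERN1 had a log2 difference of 0.023, EIF2AK3 of 0.031 and ATF6 of -0.042, with SE of 0.093, 0.089 and 0.076, and adjusted p of 0.93, 0.90 and 0.83. The EIF2AK3 signal ran from 961 to 988 over the 4 arrays.

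None of the 16 ER chaperones and genes of ER-associated degradation passed the test over all genes. An unadjusted p under 0.05 in limma was reached by 4 of them with a higher mean (CALR, PDIA6, HSPA5 and SEL1L) and by 0 with a lower one, where 9.54% and 8.19% of all tested genes did. Both ING3 arrays lay above both controls for 6 of the 16 and below them for 1, the degradation factor EDEM1, against 24.3% and 24.9% of all tested genes. The log2 differences ran from -0.045 to 0.28 with a median of 0.055, and 10 of the 16 had a higher mean in ING3 cells.

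HSPA5 (BiP), the main Hsp70 chaperone of the ER and a standard readout of the response, had a signal of 15659 and 15416 in control cells against 17446 and 18539 in ING3 cells. The ING3 arrays were both above the controls, and the log2 difference of 0.21 did not pass (SE 0.055, limma adjusted p = 0.096). Over the 14 alternatives to the main fit it lay between 0.13 and 0.25. CALR, the lectin chaperone calreticulin, had the largest difference of the group, with a signal of 3814 and 4064 in control cells against 4859 and 4691 in ING3 cells (log2 difference 0.28, SE 0.064, adjusted p = 0.071). PDIA6, a protein disulfide isomerase, had a signal of 10957 and 11788 in control cells against 13439 and 13788 in ING3 cells. Its log2 difference of 0.26 did not pass (SE 0.058, limma adjusted p = 0.067). CALR and PDIA6 were read by probe sets with the suffix _x_at, whose probes may also bind related sequences, as was HSP90B1, the ER form of Hsp90.

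SEL1L, the scaffold of the ubiquitin ligase that clears ER proteins, had a signal of 2479 and 2488 in control cells against 2734 and 2768 in ING3 cells. The duplicates of each group were close together and apart from the other group, a log2 difference of 0.15 (SE 0.066, adjusted p = 0.28). HERPUD1, another degradation factor and with SDF2L1 the lowest of the group, had a signal of 6331 and 5829.8 in control cells against 5642 and 6147 in ING3 cells, with the groups overlapping (log2 difference -0.045, SE 0.069). The disulfide isomerases PDIA3 and PDIA4 had log2 differences of 0.047 and 0.11, and the BiP cochaperones DNAJB9, DNAJB11 and DNAJC3 of 0.14, -0.035 and -0.019. HYOU1, a nucleotide exchange factor of BiP, had 0.062, HSP90B1 0.028, the secreted factors MANF and CRELD2 0.088 and -0.034, SDF2L1 -0.045 and EDEM1 -0.034. SDF2L1, a BiP-associated ER protein, was the member whose control duplicates lay farthest apart on the log2 scale, with 481 and 331 in control cells against 394 and 379.9 in ING3 cells.

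Every one of the 6 transcription factors of the integrated stress response had both ING3 arrays above both control arrays, where 24.3% of all tested genes did, and none passed the test over all genes. The limma p was under 0.05 before adjustment for 5 of the 6, with NUPR1 as the exception. Of all tested genes 9.54% had such a p with a higher mean. The log2 differences of the 6 ran from 0.13 to 0.43 with a median of 0.22. DDIT3 (CHOP), a C/EBP-family factor linked to cell death under lasting stress, had a signal of 1159.8 and 1221 in control cells against 1706 and 1502 in ING3 cells. Its ING3 arrays were further apart than its controls and both above them, a log2 difference of 0.43 (SE 0.091, limma adjusted p = 0.056). Over the 14 alternatives to the main fit it lay between 0.34 and 0.52.

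ATF4, the central factor of the response, which is controlled mainly by translation, had a signal of 12389.9 and 11887 in control cells against 13249 and 14139 in ING3 cells. The gap between the groups was small against their level, with a log2 difference of 0.17 (SE 0.058, adjusted p = 0.17). ATF3, a stress-induced relative of ATF4, had 669 and 707 in control cells against 882 and 841 in ING3 cells (log2 difference 0.32, SE 0.10, adjusted p = 0.15). The C/EBP factors CEBPB and CEBPG, the second of which pairs with ATF4, had log2 differences of 0.20 and 0.24 with SE of 0.056 and 0.075. NUPR1, a small chromatin protein induced by stress and first found in the pancreas, had the lowest difference of the group, with 1498 and 1417 in control cells against 1595 and 1594 in ING3 cells (log2 difference 0.13, SE 0.078, adjusted p = 0.42).

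Among the 6 ATF4 targets of feedback and signalling, TRIB3 rose and the others did not pass, CHAC1 being the 1 with a lower mean in the ING3 cells. TRIB3, which binds ATF4 and the kinase AKT, had a signal of 8213 and 8539.7 in control cells against 11349.7 and 11909.6 in ING3 cells, with both ING3 values well above both controls. It rose 1.39-fold, a log2 difference of 0.47 with SE 0.057 (limma, adjusted p = 0.0078). TRIB3 did not pass in limma without an intensity trend (adjusted p = 0.24), where 0 of all 12190 tested genes were called. With the mean over its probe sets it did not pass either (adjusted p = 0.052). Nor did it pass with control array a or b left out. Those fits hold a single control array and called hardly any gene of the series. Over the 14 alternatives to the main fit its log2 difference lay between 0.41 and 0.51. CHAC1, a glutathione-degrading enzyme and a sensitive target of ATF4, had a signal of 546 and 544 in control cells against 441 and 478 in ING3 cells. Both ING3 values lay below both controls, and the log2 difference of -0.25 did not pass (SE 0.12, adjusted p = 0.33).

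The other 4 members of this group did not pass. They had both ING3 arrays above both controls, where 24.3% of all tested genes did. DDIT4 and SESN2, inhibitors of the growth kinase mTORC1, had log2 differences of 0.22 (SE 0.061, adjusted p = 0.10) and 0.27 (SE 0.10, adjusted p = 0.22). The DDIT4 signal was 8694 and 9167 in control cells against 10078 and 10785 in ING3 cells. PPP1R15A (GADD34), the phosphatase subunit that reverses eIF2 phosphorylation, had 365 and 389.7 in control cells against 489 and 416 in ING3 cells, with ING3 array b near the controls (log2 difference 0.26, SE 0.14). VLDLR, a lipoprotein receptor induced by PERK and ATF4, had a log2 difference of 0.13 (SE 0.12).

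**Figure D2:**
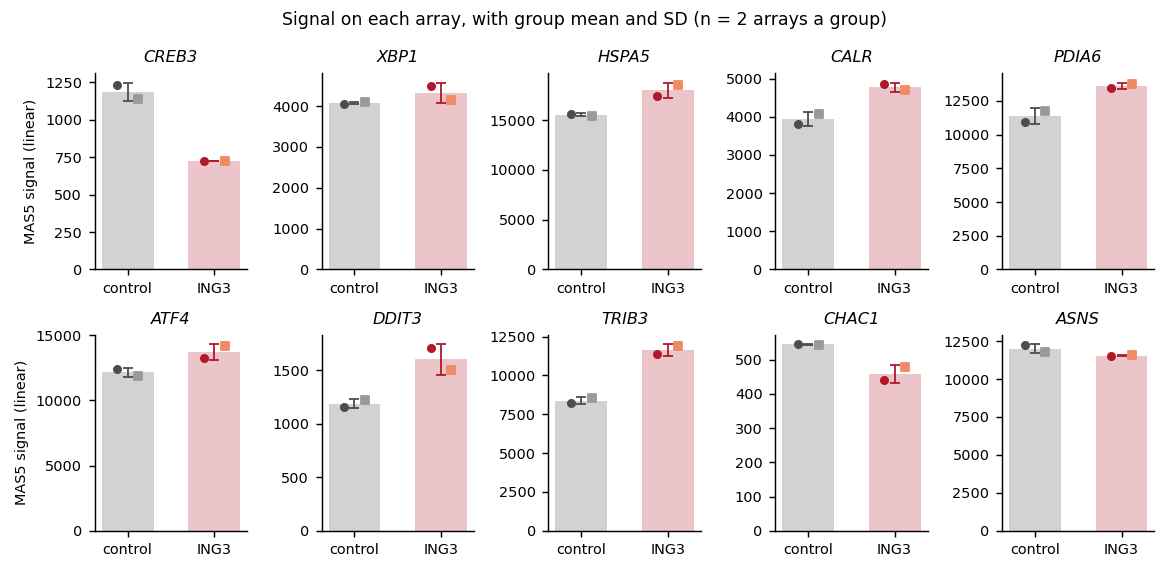
Linear MAS5 signal (vertical axes, starting at 0) of 10 members on the control and ING3 arrays, with bars for the mean, error bars for the SD (n = 2) and a point for each array (circle a, square b). TRIB3, DDIT3, ATF4, XBP1 and the chaperones HSPA5, CALR and PDIA6 have both ING3 points above both control points, and CREB3, CHAC1 and ASNS have them below.

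The ATF4 targets of amino acid supply and tRNA charging had a median log2 difference of 0.086 over 7 genes, and none passed. In limma 2 of them, CTH and XPOT, had an unadjusted p under 0.05 with a higher mean, where 9.54% of all tested genes did. ASNS, asparagine synthetase and a classical ATF4 target, had 12226 and 11783 in control cells against 11528 and 11558 in ING3 cells. The ING3 values lay just below the controls, a log2 difference of -0.056 (SE 0.054, adjusted p = 0.64). CTH, cystathionine gamma-lyase of cysteine synthesis, had the highest difference, with 2717 and 2683 in control cells against 3547 and 3154 in ING3 cells (log2 difference 0.31, SE 0.075, adjusted p = 0.080). For CTH, ING3 array b was the closer of the ING3 arrays to the controls. XPOT, which exports tRNA from the nucleus, had a log2 difference of 0.21 (SE 0.066, adjusted p = 0.14). SLC3A2 and SLC7A5, the heavy and light chains of an amino acid exchanger, had 0.16 and 0.070 (SE 0.10 and 0.058), and the tRNA synthetases AARS1 and WARS1 had 0.086 and 0.024 (SE 0.055 and 0.053).

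Set side by side, the 19 transcription factors and ATF4 targets had a median log2 difference of 0.20 with 15 of 19 above the controls on both ING3 arrays, the 16 chaperones and degradation genes had 0.055 with 6 of 16, and the 6 sensors had -0.0095 with 2 of 6. These shares were 78.9%, 37.5% and 33.3%, against 24.3% of all tested genes. Whether the role groups differ was not tested. Relative to the control mean, the median over the 6 transcription factors was 0.23 on ING3 array a and 0.22 on ING3 array b (log2), and that over the 6 feedback and signalling targets was 0.25 and 0.18. For the chaperones the ING3 arrays themselves were apart, at 0.018 on array a and 0.11 on array b. With the mean over all probe sets of a gene the median of the chaperones turned to -0.034, and that of the sensors to 0.067.

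**Figure D3:**
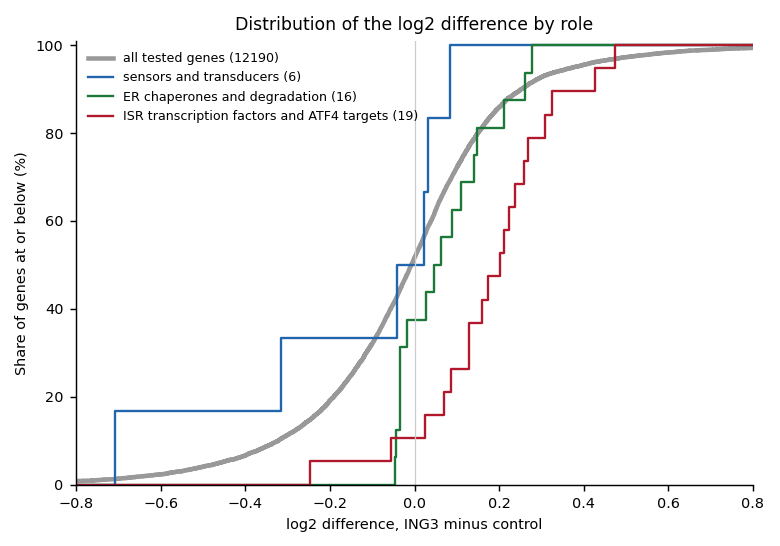
Share of genes (vertical axis, percent) at or below each log2 difference, ING3 minus control (horizontal axis), for all tested genes in grey and for the members in 3 role groups. The red curve of the 19 transcription factors and ATF4 targets lies to the right of the grey curve for most of its course, the green curve of the chaperones runs from -0.045 to 0.28, and the blue curve of the sensors starts at CREB3 and CREB3L2.

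Members with either promoter element lay across the range of differences. The members with the ER element had log2 differences of 0.28 (CALR), 0.21 (HSPA5), 0.084 (XBP1), 0.028 (HSP90B1) and -0.034 (CRELD2). Those with the ATF4 element had 0.32 (ATF3), 0.16 (SLC3A2), 0.086 (AARS1), -0.045 (HERPUD1), -0.056 (ASNS) and -0.25 (CHAC1), which spans both directions. TRIB3 and DDIT3, with the highest differences of the 41, had no match of either element in the window searched, which says only that these letters are not there.

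Members with more than 1 probe set allow a check within the array. In all, 79 probe sets read the 41 genes, and 20 genes had 30 other probe sets past the filter, of which 17 went the same way as the one used. For 11 of the 20 genes every other probe set did. The second TRIB3 probe set had 358 and 381 in control cells against 498 and 529.9 in ING3 cells, a log2 difference of 0.48, close to the 0.47 of the first. The second CTH probe set had 0.51, the second CEBPG probe set 0.16 and the second PPP1R15A probe set 0.31, and in each both ING3 arrays lay above both controls. The second HSPA5 and SESN2 probe sets had 0.14 and 0.050, and in both the groups overlapped. The other PDIA6 probe sets had 0.28, 0.25 and 0.13, the last of these not of a cross-hybridising kind. The other CALR probe sets had 0.072 and 0.14, with the groups overlapping in both.

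Other genes were read unequally by their probe sets. The second ATF3 probe set had 234 and 189.5 in control cells against 111 and 227 in ING3 cells, a log2 difference of -0.41 against 0.32 for the one used, with ING3 array a far below the other arrays. For XPOT the second probe set gave -0.0032. For DNAJB9 the other probe sets gave -0.019 and -0.089 with the groups overlapping, against 0.14 for the one used. For ATF6 a dimmer probe set had 0.41, with both ING3 arrays above both controls, and 2 others had 0.040 and 0.011. A dimmer SEL1L probe set had -0.49, and 2 dimmer DNAJC3 probe sets had -0.41 and -0.39, with the ING3 arrays below the controls in each. DDIT3, ATF4, CEBPB, CHAC1 and CREB3 had a single probe set and no such check.

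**Figure D4:**
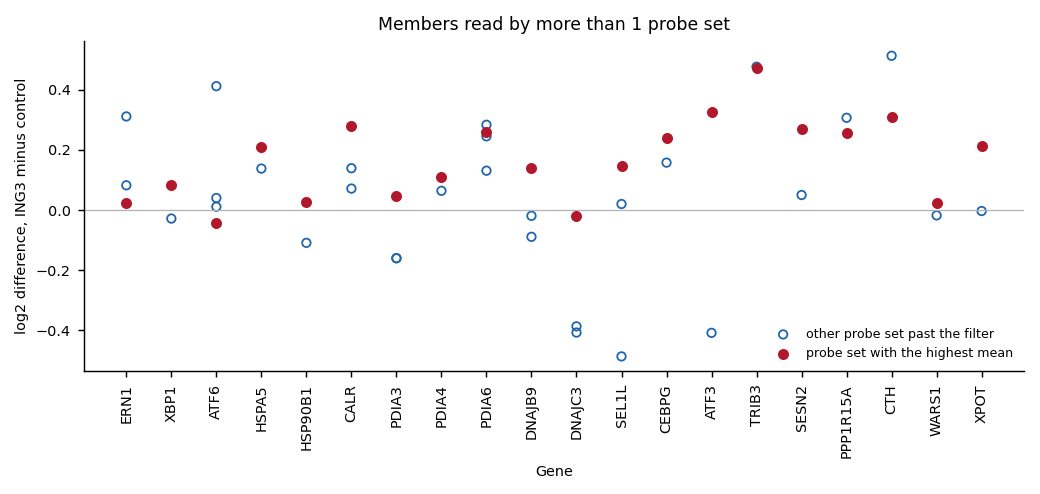
The log2 difference (vertical axis, ING3 minus control) of every probe set past the filter for the 20 members with more than 1, filled red for the probe set used and open blue for the others. TRIB3, PDIA6 and CTH have all their points above 0, while ATF3, SEL1L and PDIA3 have points on both sides.

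A second list, of 98 further genes of these pathways, was read in the same fit, and 86 of them were tested (9 had no probe set of their own and 3 lay under the filter). Of these, 2 rose and 0 fell, against 1.03% and 0.476% of all tested genes, and the median log2 difference was 0.018. GDF15, a stress cytokine induced by ATF4, CHOP and p53, rose from 446 ± 14.3 to 762 ± 85.6 (SD, n = 2; log2 difference 0.77, with SE 0.12 and an adjusted p of 0.024 in limma) on a probe set of the _x_at kind. ERO1A, the oxidase that reoxidises disulfide isomerases and is also induced by hypoxia, rose from 3848 ± 24.1 to 4920.3 ± 77.2 (log2 difference 0.35, SE 0.060, adjusted p = 0.027). Read by a probe set that is not of the _s_at kind, ERO1A had 0.21 and did not pass. Neither gene passed with control array a or b left out. Those fits hold a single control array and called hardly any gene of the series. GDF15 also did not pass without ING3 array b.

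By role, none of the 12 genes of the eIF2 kinases, eIF2 and its exchange factor eIF2B passed, and none reached an unadjusted p under 0.05 in limma. Their largest differences were 0.16 for EIF2B3 and 0.12 for EIF2S1. Of 26 tested ATF4-linked genes of amino acid supply, tRNA charging and stress, 10 had both ING3 arrays above and 6 below both controls (38.5% and 23.1%, against 24.3% and 24.9% of all tested genes), with a median of 0.053. GDF15 and ALDH1L2 had the largest differences. ALDH1L2, a mitochondrial folate dehydrogenase, had 330.0 and 345 in control cells against 241 and 188 in ING3 cells, below the controls on both ING3 arrays (log2 difference -0.66, SE 0.19, adjusted p = 0.11, not called). Of 48 tested genes of ER translocation, folding, degradation and membrane-bound factors, 14 lay above and 15 below (29.2% and 31.2%, near the shares of all tested genes, 24.3% and 24.9%), with a median of -0.012. FKBP11, a prolyl isomerase of secretory cells, had -0.42 (SE 0.16, adjusted p = 0.22) and ERO1A had the other large difference of that list. Among relatives of CREB3 and ATF6, CREB3L1 had -0.31 (SE 0.18), CREB3L4 0.052 (SE 0.17) and ATF6B 0.35 (SE 0.14), none called.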

How the data were processed

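Labelled RNA from 4 samples was measured on 1-colour Affymetrix arrays, 2 a group, and the groups came from the titles. The deposited values are linear signal intensity for 54675 probe sets, which the authors computed by MAS5 in Expression Console (submitters' processing notes, without versions). Trimmed of 2% at either end, each deposited column averaged 500.1, so arrays share 1 scale. MAS5 subtracts mismatch signal, so dim probe sets vary widely. Detection calls were not used here. The number of arrays limits the precision.

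Control probe sets (62) were left out. The platform annotation of 2016 gave 1 symbol to 41097 probe sets and several to 1801, which were not named; symbols were updated by gene ID through RefSeq. Signals were taken as log2(signal + 1). Genes with a mean log2 not below that of the median probe set (signal 64.6) were tested with limma 3.58.1 (R 4.3.3; linear model without covariates, eBayes with trend = TRUE, two-sided, Benjamini-Hochberg over all tested genes), and the script was tested on simulated data. Each gene had 2 residual degrees of freedom and borrowed 7.35.

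The members and lists were chosen with earlier results of these data known, so lists are described by counts and medians beside all tested genes. Every member was described. Values on each array were given for members that passed, for the highest and lowest difference of each role group, and for HSPA5, DDIT3, ATF4 and XBP1; those of other members were chosen after their values were seen. Of the further genes, called ones and those with the 2 largest differences of each list were named, and CREB3L1, CREB3L4 and ATF6B were chosen after their values were seen. The alternatives tried numbered 14.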

Additional observations from a re-analysis of the deposited data

How the results depend on the processing

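TRIB3, CREB3, GDF15 and ERO1A kept their direction under the 14 alternatives. Over them the log2 difference of TRIB3 lay between 0.41 and 0.51 (adjusted p 0.0011 to 0.24, limma, passing in 10) and that of CREB3 between -0.76 and -0.65 (adjusted p 0.0017 to 0.24, passing in 11). Without an intensity trend limma called 0 members higher, 0 lower and 0 of the further genes. It called 0 of all 12190 tested genes, of which 1686 had an unadjusted p under 0.05. With the mean over all probe sets of a gene 0 members were higher and 0 further genes were called. In that fit 37 of 10764 tested genes were called in either direction. Without the filter on dim genes 0 further genes were called, where 54 of 19775 tested genes were called. A further alternative took a probe set not of the _x_at or _s_at kind where a gene had such a probe set, and otherwise its brightest. It also called 0 further genes, where 128 of 11443 tested genes were called. CREB3 has a single probe set, so this alternative and the mean over probe sets read the same probe set as the main fit. Leaving out 1 array at a time gave 0 to 4 members higher, 0 to 1 lower and 0 to 2 further genes called; the members were called in neither direction with control array a or b left out. With the letters a and b as a replicate block 5 members were higher, TRIB3 with CALR, PDIA6, DDIT3 and CTH. That fit called 442 of all 12190 tested genes in either direction, against 183 in the main fit. The deviations of the a arrays from their group means correlated at 0.029, which does not show that the letters pair the arrays.

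The median log2 difference of the members was 0.062 to 0.13, leaving out 1 array at a time, that of the transcription factors 0.21 to 0.24, of the feedback targets 0.18 to 0.28, of the amino acid and tRNA genes 0.062 to 0.11, of the chaperones 0.018 to 0.12 and of the sensors -0.048 to 0.023. The transcription factors had 0.19 with quantile normalization, 0.19 with cyclic loess and 0.19 with the mean over probe sets. They also had 0.19 with probe sets of neither kind where a gene had such a probe set. NUPR1 has only an _s_at probe set, which stayed in. For the amino acid and tRNA genes these were 0.045 (quantile), 0.028 (cyclic loess) and 0.12 (neither kind where available). In the last of these SLC3A2 and SLC7A5 kept their only probe sets, of the _s_at kind. The mean over probe sets gave 0.067 for the sensors, -0.034 for the chaperones and 0.19 for the feedback targets. The causes were not tested. The table gives no measure of signal over background for single probe sets.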
